A study of Arabidopsis thaliana with 12 samples.

Results

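The genes described here are 37 Arabidopsis thaliana genes of the secondary cell wall, chosen by locus code from the 36917 genes of a raw count table. They comprise 3 NAC and 6 MYB regulators, 4 genes of cellulose deposition, 6 of xylan, 7 of the general phenylpropanoid pathway, 8 of monolignol synthesis and 3 laccases. RNA was sequenced from 4 groups of 3 libraries, each library made from about 20 organs. The groups were ful-1 pistils and siliques of stages 12 to 16 in the Ler ecotype, wild-type Ler pistils of the same stages, ful-7 (SALK_033647) inflorescence meristems in Col-0 dissected with buds up to stages 3 to 4, and wild-type Col-0 meristems. Both Ler groups carry the erecta mutation of that ecotype. Allele and ecotype change with the tissue, so a difference between pistils and meristems cannot be told apart from one between ecotypes.

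Secondary walls are laid down inside the primary wall of vessels, fibres and the lignified cells of the fruit, and consist of cellulose, xylan and lignin. NAC factors of the NST group switch on MYB46 and MYB83, which with further MYB factors act on the genes of cellulose, xylan and lignin synthesis. Lignin is made from phenylalanine by the phenylpropanoid and monolignol enzymes and is polymerised in the wall by laccases and peroxidases. In the Arabidopsis fruit, lignin forms in the valve margin and in the inner valve layer, where NST1 and NST3 are required. FUL encodes a MADS-domain factor that keeps valve margin genes off in the valves, and valves of ful fruits are known for ectopic lignification.

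The regulators are the NAC genes NST1 (AT2G46770), NST2 (AT3G61910) and NST3 (AT1G32770) and the MYB genes MYB46 (AT5G12870), MYB83 (AT3G08500), MYB58 (AT1G16490), MYB63 (AT1G79180), MYB85 (AT4G22680) and MYB103 (AT1G63910). Cellulose is represented by CESA4 (AT5G44030), CESA7 (AT5G17420), CESA8 (AT4G18780) and IRX6 (AT5G15630), and xylan by FRA8 (AT2G28110), IRX8 (AT5G54690), IRX9 (AT2G37090), IRX10 (AT1G27440), IRX15 (AT3G50220) and IRX15L (AT5G67210). The phenylpropanoid genes are PAL1 (AT2G37040), PAL2 (AT3G53260), PAL3 (AT5G04230), PAL4 (AT3G10340), C4H (AT2G30490), 4CL1 (AT1G51680) and 4CL2 (AT3G21240). The monolignol genes are HCT (AT5G48930), C3H1 (AT2G40890), CCoAOMT1 (AT4G34050), CCR1 (AT1G15950), F5H1 (AT4G36220), COMT1 (AT5G54160), CAD4 (AT3G19450) and CAD5 (AT4G34230), and the laccases LAC4 (AT2G38080), LAC11 (AT5G03260) and LAC17 (AT5G60020).

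MYB46 and MYB83 bind a 7-base element, the SMRE, written ACCNANN with A or T at the first N, A or C at the second and C or T at the last, which gives 8 forms. The forms ACCTACC or ACCAACC or ACCTAAC are also known as AC elements, the sites of lignin MYB factors, so each AC element counts as an SMRE too. In the 250 bases before the annotated gene start, on either strand, 19 of the 37 genes (51.4%) held an SMRE, against 29.4% of 27443 promoters of the same length. An AC element stood in 10 of the 37 (27.0%), against 6.12% of all promoters. The AC elements lay in 5 of 8 monolignol genes, in 2 of 3 laccases and in MYB83, IRX8 and 4CL2, and no NAC promoter of the 3 held an SMRE. A TERE, CTTNAAAGCNA, matched in 1 promoter of the 37, that of CESA4 (2.7%, against 0.368% of all), and the E-box variant CACGCG in 1, that of IRX10 (2.7%, against 2.57% of all). The CArG box, the type of site that MADS-domain factors bind, matched in 0 of the 37 windows, against 2.52% of all promoters. Of the 37 windows, 6 overlap exons of another annotated gene. The overlap covers all 250 bases for CESA4, with the only TERE match, and for LAC17, and 222 bases for 4CL2. A match is a string of letters and was not tested as a binding site.

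The first 5 promoters below belong to the genes whose levels differed between ful-1 and Ler pistils once 1 library was set aside, and the last 3 to monolignol and laccase genes that were higher in wild-type pistils than in wild-type meristems. The sequences are those of the Columbia reference TAIR10.1 in RefSeq, read 5′ to 3′ on the strand of the gene and ending at the base before its start. The Ler sequence may differ. Capitals mark an SMRE on either strand. NST1 lies before the minus-strand gene at chr2:19222917-19223166, MYB103 at chr1:23721775-23722024 (minus), IRX8 at chr5:22221969-22222218 (minus), F5H1 at chr4:17139778-17140027 (minus), C4H at chr2:12996013-12996262 (minus), CCoAOMT1 at chr4:16310159-16310408 (plus), HCT at chr5:19838236-19838485 (minus) and LAC11 at chr5:779425-779674 (minus). None of these 8 windows overlaps an exon of another annotated gene.
NST1: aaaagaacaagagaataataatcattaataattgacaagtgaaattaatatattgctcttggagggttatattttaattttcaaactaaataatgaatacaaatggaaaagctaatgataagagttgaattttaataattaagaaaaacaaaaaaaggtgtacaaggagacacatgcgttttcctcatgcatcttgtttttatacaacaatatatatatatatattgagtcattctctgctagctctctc
MYB103: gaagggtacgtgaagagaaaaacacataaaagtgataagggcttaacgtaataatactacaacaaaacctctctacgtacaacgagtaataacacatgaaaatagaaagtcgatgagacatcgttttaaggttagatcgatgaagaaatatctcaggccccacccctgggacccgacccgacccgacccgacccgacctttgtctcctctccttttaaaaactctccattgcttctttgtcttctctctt
IRX8: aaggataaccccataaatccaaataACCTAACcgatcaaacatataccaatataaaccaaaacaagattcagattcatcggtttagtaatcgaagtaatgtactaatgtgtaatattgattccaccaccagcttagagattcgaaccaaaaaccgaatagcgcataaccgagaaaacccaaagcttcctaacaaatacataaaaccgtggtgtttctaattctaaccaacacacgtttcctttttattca
F5H1: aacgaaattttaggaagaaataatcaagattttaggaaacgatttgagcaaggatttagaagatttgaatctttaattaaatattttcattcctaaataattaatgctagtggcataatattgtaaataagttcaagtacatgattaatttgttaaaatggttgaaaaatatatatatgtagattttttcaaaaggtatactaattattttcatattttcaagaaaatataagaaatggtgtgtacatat
C4H: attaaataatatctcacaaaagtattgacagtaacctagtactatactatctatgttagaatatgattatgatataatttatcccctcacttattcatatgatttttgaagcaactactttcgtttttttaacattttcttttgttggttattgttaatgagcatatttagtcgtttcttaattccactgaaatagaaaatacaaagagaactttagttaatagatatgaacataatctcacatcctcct
CCoAOMT1: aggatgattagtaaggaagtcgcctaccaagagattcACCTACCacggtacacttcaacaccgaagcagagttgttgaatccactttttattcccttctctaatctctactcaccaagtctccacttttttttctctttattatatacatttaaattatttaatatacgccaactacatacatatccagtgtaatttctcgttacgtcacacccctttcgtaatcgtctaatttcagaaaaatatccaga
HCT: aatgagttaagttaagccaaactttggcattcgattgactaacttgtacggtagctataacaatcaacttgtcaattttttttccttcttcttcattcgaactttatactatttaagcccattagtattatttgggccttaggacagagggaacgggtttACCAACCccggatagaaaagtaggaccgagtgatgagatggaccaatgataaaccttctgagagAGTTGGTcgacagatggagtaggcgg
LAC11: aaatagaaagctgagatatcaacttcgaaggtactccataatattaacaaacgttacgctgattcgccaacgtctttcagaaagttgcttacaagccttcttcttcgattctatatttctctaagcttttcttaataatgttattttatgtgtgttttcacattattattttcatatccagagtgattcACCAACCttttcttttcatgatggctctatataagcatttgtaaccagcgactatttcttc
Among the first 5, only IRX8 has an SMRE in this window, ACCTAAC at 225 to 219 bases before the start. NST1, MYB103, F5H1 and C4H have none. CCoAOMT1 has ACCTACC, LAC11 has ACCAACC, and HCT has ACCAACC on its own strand and ACCAACT on the other strand, where it reads AGTTGGT.

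Total counts were 13191949 to 38215149 in ful-1 pistils, 30528403 to 34276079 in Ler pistils, 47262598 to 83606724 in ful-7 meristems and 38340498 to 59830057 in Col-0 meristems. FUL itself had 8.87, 9.76 and 2.58 CPM (counts relative to library size, scaled by TMM over all 12 libraries) in the ful-1 libraries, against 104, 107 and 96.2 CPM in Ler, and 2.44, 1.71 and 3.29 CPM in ful-7, against 95.3, 107 and 153 CPM in Col-0. Of the ful-1 pistil libraries, the third stands apart. Its rank correlation with the other 5 pistil libraries across genes was 0.910 to 0.916, against at least 0.977 among those 5, and it held the fewest counts. Col-0 meristem library 3 had summed levels of 116 CPM for 3 phloem markers and 62.5 CPM for 6 anther markers, against 38.7 to 41.9 CPM and 7.82 to 7.90 CPM in the other Col-0 libraries. Results that turn on either library are given with and without it. Of the 5 meristem markers, 4 were tested, STM, WUS and LFY among them. All 4 were lower in Ler pistils than in Col-0 meristems. Without Col-0 library 3, 3 of them were lower and 1 did not pass. The carpel and ovule markers STK and INO were higher in Ler pistils. WUS and LFY were too low to test within pistils, and INO within meristems. The filter on low counts therefore fixed the direction of WUS, LFY and INO. The other 2 of the 4 carpel and ovule markers, CRC and SPT, did not pass. Without Col-0 library 3, 2 of these 4 were higher and 1 was lower, so this list goes only in part with the tissue labels.

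**Figure D1:**
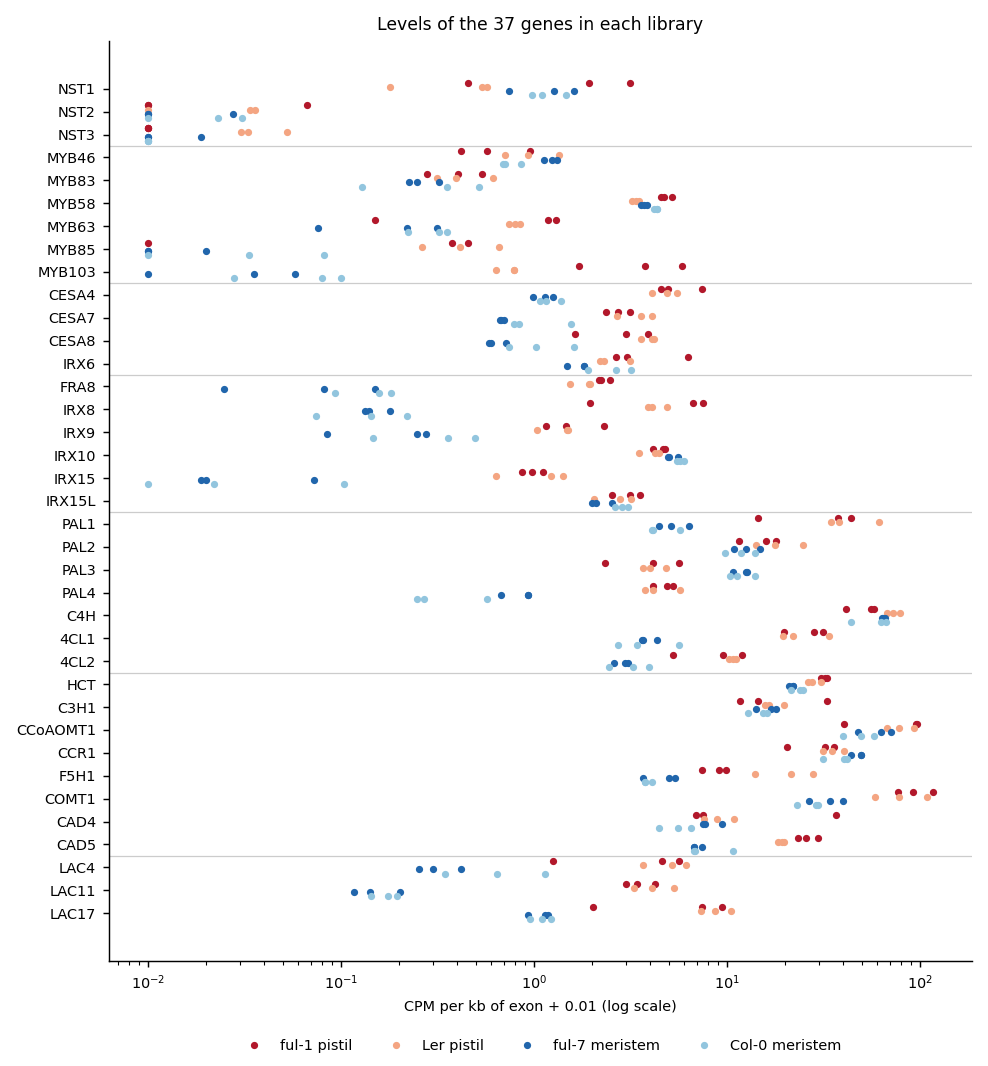
Level of each of the 37 genes in each of the 12 libraries, as CPM per kb of exon plus 0.01 on a log axis, with ful-1 above Ler and ful-7 above Col-0 in each row and grey lines between roles. Most wall genes lie further right in the pistil libraries than in the meristem libraries, and NST2 and NST3 lie at the left edge in all groups.

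Set side by side per kb of exon, the most abundant members in every group were lignin enzymes. COMT1, which methylates syringyl precursors, averaged 81.9 ± 25.2 CPM per kb in Ler pistils and 27.4 ± 3.68 CPM per kb in Col-0 meristems (SD, n = 3 each). CCoAOMT1, the other methyltransferase of the pathway, averaged 79.9 ± 12.8 CPM per kb in Ler pistils and 49.2 ± 8.77 in Col-0 meristems. C4H, the second enzyme of the phenylpropanoid pathway, averaged 73.1 ± 5.40 CPM per kb in Ler pistils, where COMT1, CCoAOMT1 and C4H did not differ beyond their SDs, and 58.2 ± 12.3 CPM per kb in Col-0 meristems, where it ranked first. Of the regulators, MYB58 had the highest value, at 3.36 ± 0.13 CPM per kb in Ler pistils and 4.29 ± 0.102 in Col-0 meristems, but its reads cannot be told apart from those of an RNA on the opposite strand.

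NST2 and NST3 were all but absent. NST2 had 8 counts and NST3 had 5 counts among the 535875547 counts of all 12 libraries, and neither was tested. NST3 had 0 counts in the 3 ful-1 pistil libraries together, which allows up to 0.0380 CPM over the group (3 counts, counting error only), against 4 counts in the Ler pistil libraries.

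More wall genes were called between the wild-type tissues than in either comparison of ful with wild type. In Ler pistils, 24 of the 35 tested genes were higher and 3 were lower than in Col-0 meristems, by edgeR's quasi-likelihood test with Benjamini-Hochberg adjustment over all genes at 0.05. That is 68.6% higher and 8.57% lower, against 31.8% and 29.1% of the 24009 genes tested (60.9% in either direction). The median log2 fold change of the 35 was 1.59, against 0.01 over all genes tested. All 3 libraries of Ler pistils lay above all 3 of Col-0 meristems for 25 of the 35 (35.3% of all genes tested) and below them for 4 (33.7% of all genes tested). MYB85, MYB103 and IRX15, among the higher genes, were too low to test in meristems and entered this test through the pistil libraries. The filter on low counts fixed their direction, and they count in the 24, the 25 and the median. The shares of all genes tested rest on the same filter. In bulk tissue, more cells of a lignifying type and more RNA per cell cannot be told apart. The xylem vessel markers XCP1, XCP2, VND7 and VND6 summed to 34.0 to 50.1 CPM in Ler pistils and 9.52 to 17.7 CPM in Col-0 meristems. Of these, XCP1 and XCP2 were higher. VND7 (0.86 ± 0.46, adjusted p = 0.143) and VND6 (-0.26 ± 0.27, adjusted p = 0.421) did not pass. The 6 valve margin markers were all higher in Ler pistils, with sums of 225 to 254 CPM there and 37.4 to 58.3 CPM in Col-0 meristems. Of these, ALC had the most counts in Col-0 meristems (1661, 965 and 2951). IND, ADPG1 and ADPG2 were too low to test in meristems, so the filter fixed their direction too. On the opposite strand, AT5G67100 overlaps 84.5% of the ALC exons and a noncoding RNA 56.7% of the SHP2 exons. Counts of these 2 markers may hold reads of those genes. The 5 pollen markers were all higher too, with sums of 457 to 1442 CPM in Ler pistils and 11.5 to 30.9 CPM in Col-0 meristems. Phloem markers summed to 115 to 137 CPM in Ler pistils and 38.7 to 116 CPM in Col-0 meristems, and 1 of 3 was higher, or 3 of 3 without Col-0 library 3. The part of these cells in the wall gene result was not tested.

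Among the regulators, NST1 went against the wall genes. It had 0.77, 0.24 and 0.73 CPM in Ler pistils, against 1.51, 1.35 and 2.02 CPM in Col-0 meristems, and the groups did not overlap (log2 fold change -1.47 ± 0.44 SE, adjusted p = 0.0222). It did not pass in a joint fit of all 12 libraries (adjusted p = 0.0781). MYB103, which in stems is needed for F5H1 expression and syringyl lignin, had 0.90, 1.12 and 1.13 CPM in Ler pistils, against 0.10, 0.03 and 0.13 CPM in Col-0 meristems (3.50 ± 0.46, adjusted p = 0.000512). MYB85 and the lignin activator MYB63 were also higher in Ler pistils, by 3.58 ± 0.74 and 1.43 ± 0.30 on the log2 scale, and MYB63 did not pass in the joint fit (adjusted p = 0.101). MYB103 and MYB85 entered this test through the pistil libraries, so the filter fixed their direction. MYB46 and MYB83, the second-tier switches, did not pass, at 0.42 ± 0.31 and 0.39 ± 0.53. Nor did MYB58 (-0.34 ± 0.14, adjusted p = 0.0700). The count of MYB58 is uncertain, since all of its exonic bases are overlapped by AT1G16489, a long noncoding RNA on the opposite strand. That RNA had 2883 counts over all libraries and MYB58 had 2867, with a ratio of 1.0 to 1.03 in each library.

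The 3 cellulose synthases of the secondary wall rose together. CESA4 had 15.4, 20.7 and 18.5 CPM in Ler pistils, against 4.04, 4.35 and 5.17 CPM in Col-0 meristems (log2 fold change 2.02 ± 0.16, adjusted p = 6.21e-05). CESA7 was higher by 1.72 ± 0.31 and CESA8 by 1.82 ± 0.28. IRX6, a COBRA-like protein of the same walls, was at -0.02 ± 0.24 and did not pass. Of the CESA8 exons, 14.4% are overlapped by AT4G18770 on the opposite strand.

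Of the 6 xylan genes, 4 were higher, 1 was lower and 1 did not pass. IRX8, a glycosyltransferase of the xylan chain end, had 7.83, 9.89 and 8.21 CPM in Ler pistils, against 0.27, 0.13 and 0.42 CPM in Col-0 meristems, with the highest fold of the 35 (4.92 ± 0.36, adjusted p = 3.88e-05). FRA8 and IRX9 were also higher, by 3.71 ± 0.32 and 2.05 ± 0.46, and the FRA8 homolog F8H, of the other pathway genes, was higher by 0.93 ± 0.20 (adjusted p = 0.00485). IRX10, a xylan backbone synthase, was lower in Ler pistils at 6.32, 8.03 and 7.64 CPM, against 9.94, 10.3 and 10.8 CPM in Col-0 meristems (-0.49 ± 0.14, adjusted p = 0.0177). That call ended without Ler library 1 (adjusted p = 0.0682). Its homolog IRX10L, of the other pathway genes, was lower too, at -0.38 ± 0.08 (adjusted p = 0.00463). IRX15, which entered this test through the pistil libraries, was higher by 4.72 ± 0.78, while its paralog IRX15L was at -0.08 ± 0.22. IRX15 thus made up 28.8 ± 9.73% of the pair per kb in Ler pistils and 1.19 ± 1.74% in Col-0 meristems (SD, n = 3 each).

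The general phenylpropanoid genes differed in direction within the PAL family, whose enzymes open the pathway from phenylalanine. PAL1 had 112, 180 and 101 CPM in Ler pistils, against 12.1, 12.0 and 16.8 CPM in Col-0 meristems (3.28 ± 0.26, adjusted p = 5.89e-05). PAL4 was higher by 3.66 ± 0.37 and PAL2 by 0.68 ± 0.22. PAL3 was lower, at 10.4, 9.54 and 12.6 CPM in Ler pistils, against 36.7, 27.1 and 29.4 CPM in Col-0 meristems (-1.50 ± 0.16, adjusted p = 0.000199). Per kb, PAL1 made up 61.5 ± 2.41% of the family in Ler pistils and 16.3 ± 4.20% in Col-0 meristems, and PAL3 made up 6.15 ± 2.29% and 41.2 ± 2.17% of it in the same groups. No library of Ler pistils overlapped a library of Col-0 meristems in either share (exact permutation p = 0.1, two-sided, the smallest that 3 against 3 allows). The family summed to 72.3 ± 20.4 CPM per kb in Ler pistils and 28.8 ± 3.17 in Col-0 meristems. The call of PAL2 ended when any of 4 libraries was left out, among them Col-0 library 3 (0.56, adjusted p = 0.0754), and in the joint fit of 12 libraries (adjusted p = 0.0508). The ligases 4CL1 and 4CL2 were higher by 2.69 ± 0.33 and 1.74 ± 0.18, and C4H did not pass (0.35 ± 0.16, adjusted p = 0.0936).

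**Figure D2:**
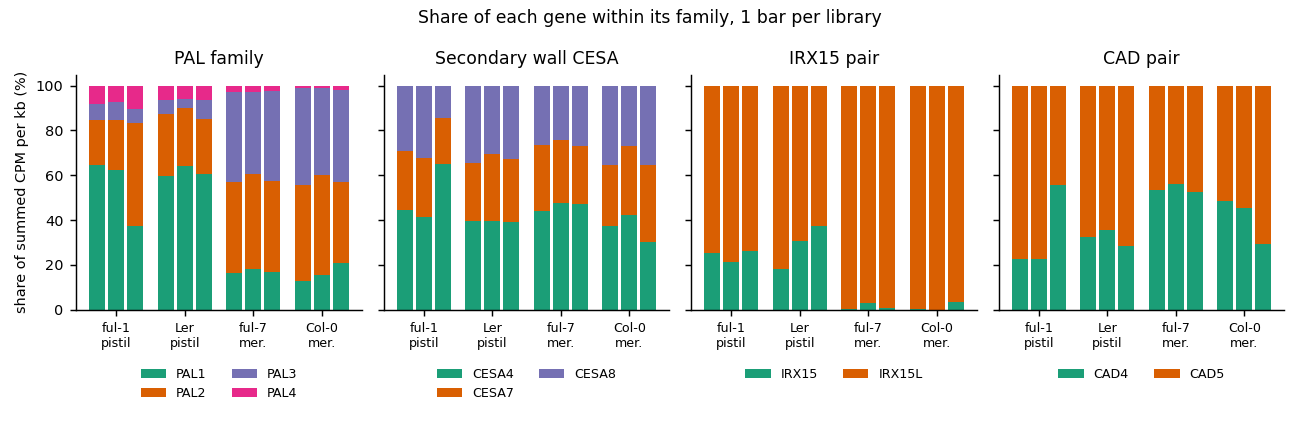
Share of each gene in the summed CPM per kb of its family, with 1 stacked bar per library, for the PAL family, the secondary wall CESA genes, the IRX15 pair and the CAD pair, in ful-1 and Ler pistils and ful-7 and Col-0 meristems. PAL3 and IRX15L take larger shares in all 6 meristem libraries than in any pistil library, and ful-1 library 3 (the third bar) differs from the other pistil libraries in its PAL1, CESA4 and CAD4 shares.

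Of the monolignol genes, 6 of 8 were higher in Ler pistils. F5H1, the hydroxylase that leads to syringyl units, had 42.7, 56.0 and 28.0 CPM in Ler pistils, against 8.19, 7.53 and 7.50 CPM in Col-0 meristems (2.46 ± 0.24, adjusted p = 0.000136). COMT1, which acts beside it, was higher by 1.59 ± 0.23, and CAD5 and CAD4, which reduce the aldehydes to monolignols, by 1.25 ± 0.20 and 0.74 ± 0.18. CCoAOMT1 was higher by 0.71 ± 0.17. CAD4 and CCoAOMT1 did not pass in the joint fit of 12 libraries (adjusted p = 0.315 and 0.0947). The smallest passing value was that of HCT at 0.29 ± 0.10 (adjusted p = 0.0373), a call that ended without any of 5 libraries, with adjusted p of up to 0.133, and in the joint fit (adjusted p = 0.114). C3H1 and CCR1 did not pass, at 0.24 ± 0.12 and -0.07 ± 0.14. Reads of CCR1 are shared with AT1G05213 and AT1G15960 on the opposite strand, which overlap 54.2% and 24.2% of its exons.

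All 3 laccases of lignin polymerisation were higher. LAC11 had 6.38, 10.3 and 7.92 CPM in Ler pistils, against 0.32, 0.26 and 0.36 CPM in Col-0 meristems (4.70 ± 0.27, adjusted p = 1.59e-05). LAC17 was higher by 3.03 ± 0.19 and LAC4 by 2.82 ± 0.43. The family summed to 18.1 ± 3.80 CPM per kb in Ler pistils and 1.95 ± 0.53 in Col-0 meristems. Of the LAC17 exons, 24.2% are overlapped by a noncoding RNA on the opposite strand.

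Without Col-0 library 3, 23 of the 35 were higher and the same NST1, IRX10 and PAL3 lower, and only PAL2 lost its call (34.2% of all genes higher, 30.1% lower and 64.3% in either direction). Of the 19 genes with an SMRE in their promoter window, 14 were higher and 1 lower in Ler pistils, and of the 18 without, 10 were higher, 2 lower and 2 not tested. Of 78 other genes of these pathways, 70 were tested with all 6 libraries. In Ler pistils 30 were higher (42.9%, against 31.8% of all genes) and 13 lower (18.6%, against 29.1%). Taken in either direction, 61.4% were called, near the 60.9% of all genes. The median of the 70 was 0.69 on the log2 scale. The lowest p-values belonged to the peroxidase PRX52 (7.79 ± 0.27), CAD8 (6.26 ± 0.27), the homeobox gene BLH6 (-3.96 ± 0.18), PRX64 (5.46 ± 0.40), CAD7 (3.39 ± 0.25) and LAC1 (-4.60 ± 0.34). In the Col-0 libraries PRX52 had 4, 6 and 10 counts and PRX64 had 5, 1 and 3. Too low to test in meristems, they entered this test through the pistil libraries, as did others of the 30. The filter on low counts fixed the direction of those genes.

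**Figure D3:**
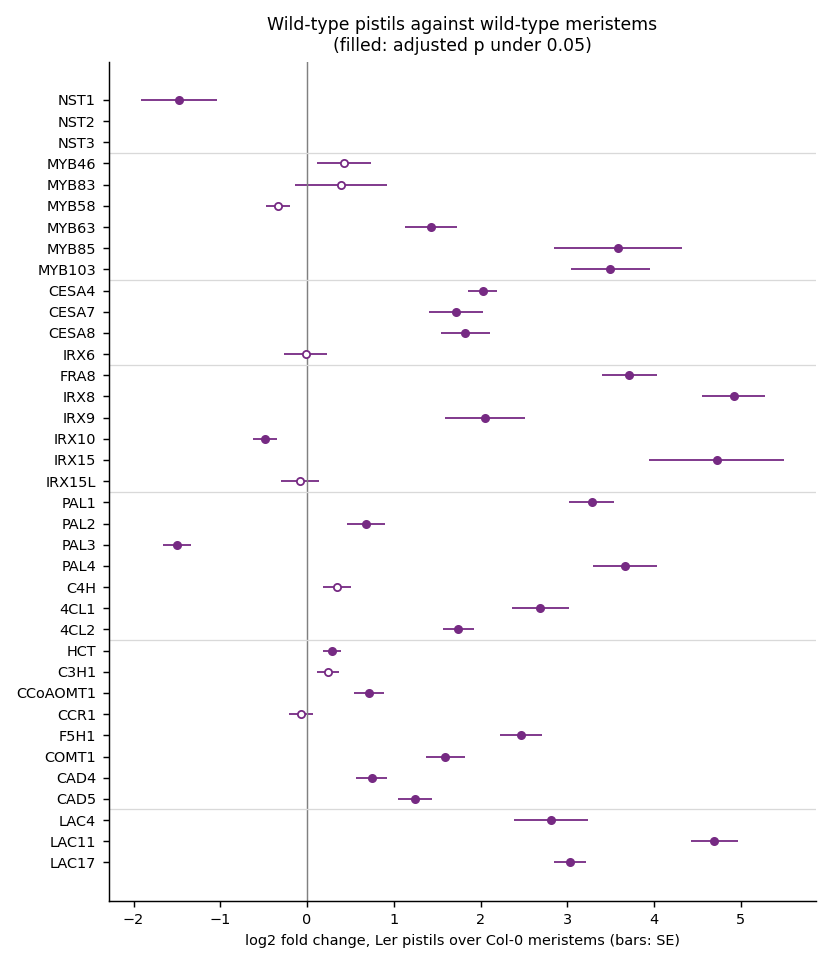
Log2 fold change of Ler pistils over Col-0 meristems for the 35 tested genes, with bars of 1 SE and filled points for adjusted p under 0.05, in the order of their roles. The 24 higher genes reach 4.92 for IRX8, and NST1, IRX10 and PAL3 are the 3 lower ones.

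The next comparison asks which wall genes respond to loss of FUL in the fruit. In ful-1 pistils, 0 of the 35 tested genes passed against Ler pistils when all 6 libraries entered the test, where 0.186% of the 23674 genes tested were called. FUL itself, the mutated gene, did not pass in that test (log2 fold change -3.84 ± 0.47, adjusted p = 0.0633). The 0 of 35 therefore does not show that the wall genes were unchanged. DESeq2 called 2 of the 35, MYB103 and F5H1 (3.92% of all genes), and limma with sample weights called 7 (23.1% of all genes). In limma, ful-1 library 3 had a weight of 0.04, against 1.03 to 3.29 for the other pistil libraries, so it counted for little. In the edgeR test, 4 reached p under 0.05 before adjustment. The median log2 fold change was 0.10, against 0.01 over all genes. Without ful-1 library 3, the same test called 5 of 35: NST1, MYB103 and IRX8 were higher, and F5H1 and C4H were lower. That is 14.3%, against 13.4% of the 24068 genes tested, so the share of wall genes called was near that of all genes. By direction, 8.57% of the 35 were higher, against 5.12% of all genes, and 5.71% were lower, against 8.26% of all genes. The square root of the common dispersion, the coefficient of variation between replicates beyond counting error, was 0.413 with that library and 0.157 without it.

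NST1, the switch of fruit lignification, had 2.65, 4.37 and 0.62 CPM in the ful-1 libraries, against 0.77, 0.24 and 0.73 CPM in Ler. The first 2 ful-1 libraries lay above every Ler library, and the third lay among them. The log2 fold change was 2.55 ± 0.46 (adjusted p = 0.0220) without library 3 and 2.15 ± 0.73 (adjusted p = 0.405) with it.

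MYB103 had 5.44, 8.48 and 2.47 CPM in ful-1 pistils, against 0.90, 1.12 and 1.13 CPM in Ler pistils, and here all 3 ful-1 libraries lay above all Ler libraries. The log2 fold change was 2.68 ± 0.25 (adjusted p = 0.00320) without library 3 and 2.39 ± 0.45 (adjusted p = 0.169) with it. DESeq2 and a joint test of all 12 libraries called MYB103 with library 3 included.

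F5H1, whose expression in stems is known to need MYB103, went the other way. It had 14.7, 19.7 and 18.1 CPM in ful-1 pistils, against 42.7, 56.0 and 28.0 CPM in Ler pistils, and the groups did not overlap. Its log2 fold change was -1.34 ± 0.31 (adjusted p = 0.0431) without library 3 and -1.23 ± 0.31 (adjusted p = 0.295) with it, and ful-1 library 3 lay with the other ful-1 libraries. DESeq2 and the joint test of 12 libraries called F5H1 too.

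IRX8 had 13.4, 15.2 and 3.92 CPM in ful-1 pistils, against 7.83, 9.89 and 8.21 CPM in Ler pistils. Library 3 was the lowest of the 6 and the other ful-1 libraries were the highest. The log2 fold change was 0.68 ± 0.14 (adjusted p = 0.0322) without library 3 and 0.33 ± 0.44 (adjusted p = 0.761) with it. C4H had 121, 116 and 86.8 CPM in ful-1 pistils, against 151, 164 and 142 CPM in Ler pistils, with no overlap. Its change was small, at -0.40 ± 0.09 (adjusted p = 0.0431) without library 3 and -0.47 ± 0.20 (adjusted p = 0.488) with it.

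**Figure D4:**
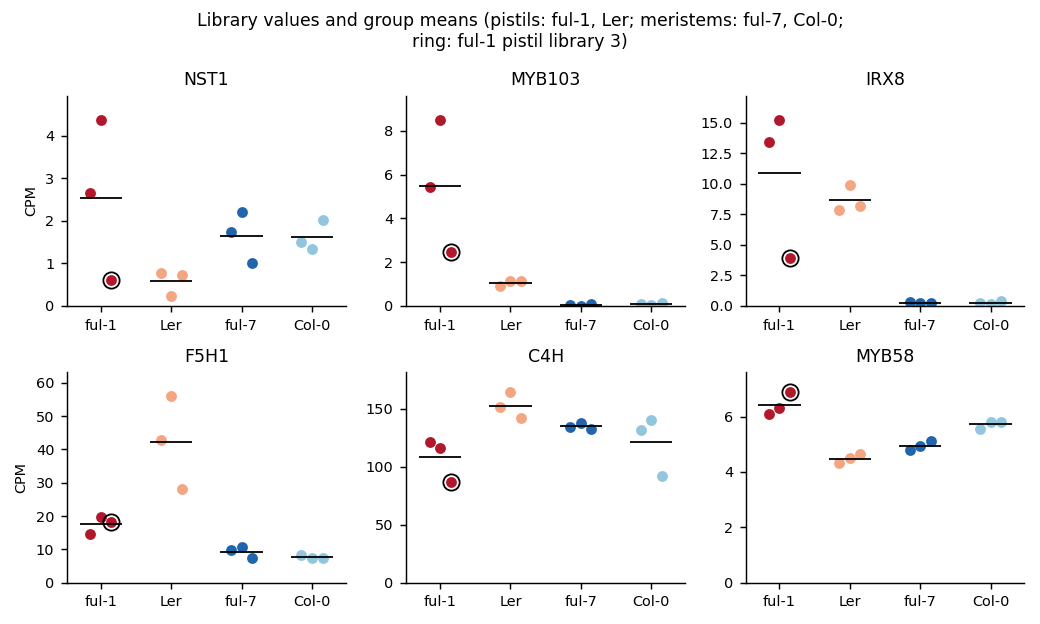
CPM in each library (points) and group means (lines) of NST1, MYB103, IRX8, F5H1, C4H and MYB58 in ful-1 and Ler pistils and ful-7 and Col-0 meristems, on linear axes from 0, with a ring around ful-1 library 3. NST1 and IRX8 of the ringed library fall among or below the Ler values, whereas its MYB103 and F5H1 values stay on the side of the other ful-1 libraries.

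The other wall genes did not pass in either test. The remaining MYB genes ran from -0.45 for MYB46 and MYB83 to 0.61 for MYB63 without library 3. MYB58 had 6.08, 6.31 and 6.90 CPM in ful-1 pistils, against 4.32, 4.49 and 4.65 CPM in Ler pistils, without overlap. Its log2 fold change was 0.42 ± 0.13 (adjusted p = 0.0797) without library 3 and 0.56 ± 0.23 (adjusted p = 0.484) with it. MYB58 shares its reads with the opposite strand. The fold changes that follow are without library 3. The cellulose genes lay between -0.28 (CESA7) and 0.12 (IRX6), with CESA8 at the lowest p of the role (-0.24 ± 0.15, adjusted p = 0.329). The laccases lay between -0.45 (LAC11, adjusted p = 0.237) and 0.00 (LAC4). Xylan genes other than IRX8 ran from -0.29 (IRX15) to 0.24 (FRA8), PAL genes from -0.50 (PAL2) to 0.19 (PAL3), and 4CL1 and 4CL2 were at 0.21 and -0.03. Of the remaining monolignol genes, C3H1 and CAD4 had the lowest values, at -0.44 and -0.38, and CAD5 and COMT1 the highest, at 0.32 each. With all 6 libraries, every ful-1 library lay above every Ler library for MYB58, MYB103, FRA8, HCT and CAD5 (5 of 35, against 13.3% of all genes) and below for C4H and F5H1 (2 of 35, against 13.1%).

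Library 3 moved single enzymes as well. CAD4 had 12.5, 13.6 and 66.9 CPM in ful-1 pistils, against 16.2, 19.7 and 13.8 CPM in Ler pistils, so that its log2 fold change was 1.02 ± 0.74 with library 3 and -0.38 ± 0.17 without it. C3H1 had 22.0, 27.5 and 62.3 CPM in ful-1 pistils, against 29.8, 37.2 and 31.0 CPM in Ler pistils. The PAL1 share of its family per kb was 37.1% in library 3 and 62.2 and 64.8% in the other ful-1 libraries, against 59.8 to 64.2% in Ler pistils.

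Marker levels moved beside these genes. The 6 valve margin markers summed to 576, 604 and 339 CPM in ful-1 pistils, against 238, 225 and 254 CPM in Ler pistils. Without library 3, IND, SHP1, SHP2, ALC and ADPG1 rose, while ADPG2 did not pass (-2.51 ± 0.73, adjusted p = 0.0772). With all 6 libraries only IND passed (3.53 ± 0.23, adjusted p = 0.0102). DESeq2, with all 6, called IND, SHP1 and SHP2 higher and ADPG2 lower (-2.90 ± 0.87, adjusted p = 0.0272). The opposite-strand overlaps of ALC and SHP2 limit these values as well. The carpel and ovule markers summed to 275 to 345 CPM in ful-1 pistils and 165 to 194 CPM in Ler pistils. Of these, 3 of 4 rose without library 3 and 0 of 4 passed with all 6 libraries. The 4 xylem vessel markers summed to 28.9 to 32.7 CPM in ful-1 pistils and 34.0 to 50.1 CPM in Ler pistils, and 0 of 4 passed, with log2 values of -0.68 to -0.32 and 4 of 4 below 0. Phloem markers summed to 28.2 CPM in ful-1 library 3 and 97.3 and 117 CPM in the other ful-1 libraries, against 115 to 137 CPM in Ler pistils, and SEOR1, 1 of the 3, was lower without library 3 (-0.97 ± 0.13, adjusted p = 0.00862). Of the meristem markers, 2 were tested in that fit and CLV1 was lower (-0.88 ± 0.11, adjusted p = 0.00710). With all 6 libraries SEOR1 and CLV1 did not pass (-1.26 ± 0.37 and -1.15 ± 0.32, adjusted p = 0.335 and 0.331). Pollen markers summed to 480 to 1005 CPM in ful-1 pistils and 457 to 1442 CPM in Ler pistils, and anther markers to 1.55 to 4.76 and 2.00 to 3.10 CPM in the same groups. WUS and CLV3 had 0 counts in all ful-1 pistil libraries. The part of these cells in the wall gene values was not tested.

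Among the 78 other pathway genes, 0 of 71 tested passed with all 6 libraries, 7 reached p under 0.05 before adjustment and DESeq2 called 2 (2.82%, against 3.92% of all genes). Without library 3, 3 were higher (4.23%, against 5.12% of all genes) and 2 were lower (2.82%, against 8.26%). In either direction that is 7.04%, below the 13.4% of all genes. The higher ones were the phenylpropanoid repressor MYB4 (0.75 ± 0.15, adjusted p = 0.0277), the FRA8 homolog F8H (0.37 ± 0.07, adjusted p = 0.0270) and the wall acetylation gene RWA1 (0.47 ± 0.08, adjusted p = 0.0181). CAD8 (-1.10 ± 0.15, adjusted p = 0.00844) and the fasciclin-like FLA12 (-1.12 ± 0.24, adjusted p = 0.0367) were the lower ones. The median over the 71 was -0.03, against 0.01 over all genes.

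**Figure D5:**
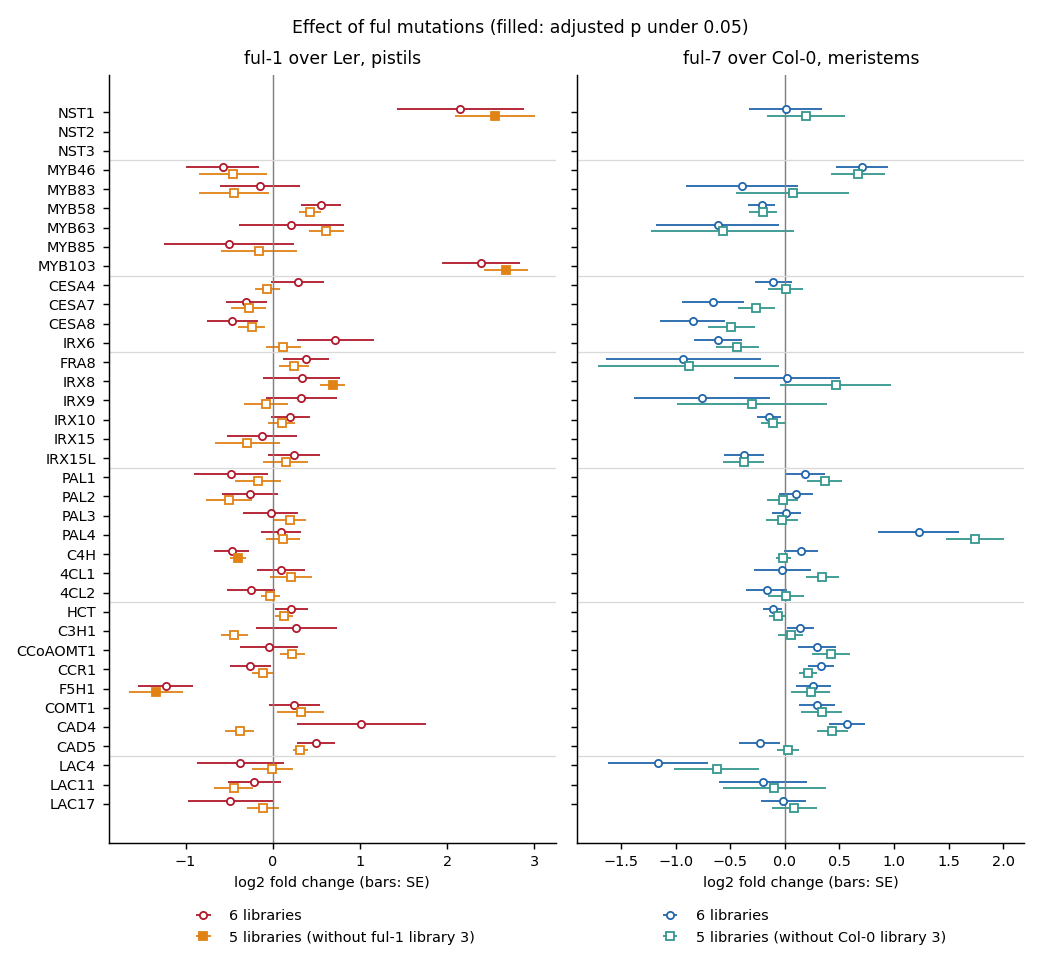
Log2 fold change with bars of 1 SE of ful-1 over Ler pistils (left) and ful-7 over Col-0 meristems (right), each with all 6 libraries and with 5, without ful-1 library 3 or Col-0 library 3; filled points have adjusted p under 0.05. In the pistil panel NST1, MYB103, IRX8, C4H and F5H1 are filled with 5 libraries, and in the meristem panel no point is filled.

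In ful-7 meristems, 0 of the 32 tested genes passed against Col-0 meristems, where 0.292% of the 22605 genes tested were called. DESeq2 called 0 of the 32 (3.59% of all genes), and limma with sample weights called PAL4 (3.75% of all genes). The limma weights ran from 0.222 for Col-0 library 3 to 6.51 for ful-7 library 1. In the edgeR test, 7 reached p under 0.05 before adjustment. The median log2 fold change was -0.06, against -0.02 over all genes. NST2, NST3, MYB85, MYB103 and IRX15 were too low to test in meristems. MYB103 had 0.04, 0.00 and 0.07 CPM in ful-7, against 0.10, 0.03 and 0.13 CPM in Col-0. Without Col-0 library 3 the count was again 0 of 32, against 0.408% of all genes.

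The lowest p of each role in meristems is given for scale. CAD4 had 14.0, 17.1 and 13.6 CPM in ful-7 meristems, against 11.8, 10.14 and 8.05 CPM in Col-0 meristems (0.57 ± 0.16, adjusted p = 0.231), without overlap. PAL4, low in this tissue, had 2.51, 2.52 and 1.82 CPM in ful-7 meristems, against 0.71, 0.65 and 1.53 CPM in Col-0 meristems (1.23 ± 0.37, adjusted p = 0.248). Without Col-0 library 3 it stood at 1.74 ± 0.27 (adjusted p = 0.0649). Without that library CESA8 was at -0.49 ± 0.22 and LAC4 at -0.62 ± 0.39. With all 6 libraries MYB46 was at 0.71 ± 0.24, CESA8 at -0.84 ± 0.30, LAC4 at -1.16 ± 0.46, IRX15L at -0.37 ± 0.18 and NST1 at 0.01 ± 0.33, with adjusted p of 0.272 to 0.992. NST1 had 1.74, 2.21 and 1.01 CPM in ful-7 meristems, against 1.51, 1.35 and 2.02 CPM in Col-0 meristems, and the groups overlapped.

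The cellulose genes had a median of -0.63 in meristems, and the 8 monolignol genes one of 0.28. Without Col-0 library 3 these medians were -0.35 and 0.23. CESA7 had 2.24, 2.28 and 2.35 CPM in ful-7 meristems, against 2.66, 2.82 and 5.30 CPM in Col-0 meristems, where library 3 is the high value. Xylem markers summed to 8.13 to 10.3 CPM in ful-7 meristems, against 11.1, 9.52 and 17.7 CPM in Col-0 meristems, with library 3 again the highest, and their part in the CESA values was not tested. Every ful-7 library lay above every Col-0 library for MYB46, PAL4, CCR1 and CAD4 (4 of 32, against 12.2% of all genes) and below for MYB58, CESA7, CESA8, IRX6 and IRX15L (5 of 32, against 10.7%). Of the other pathway genes, 0 of 63 passed and 6 reached p under 0.05 before adjustment. DESeq2 and limma with sample weights called 1 each (1.59%, against 3.59% and 3.75% of all genes).

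The effect in pistils minus that in meristems was tested as a contrast in 1 fit of all 12 libraries, and 0 of 35 genes passed (0.751% of all 25154 genes tested), with 9 at p under 0.05 before adjustment. DESeq2 called 3 (4.91% of all genes) and limma with sample weights called 12 (20.1% of all genes). The lowest p was that of F5H1 (-1.54 ± 0.35, adjusted p = 0.0825). Without ful-1 library 3, 5 of 35 passed, 14.3% against 10.2% of all genes. NST1, MYB58 and MYB103 passed with a more positive value in pistils (3.22% of all genes), and F5H1 and CAD4 with a more negative one (6.94% of all genes). MYB103 was too low to test in meristems and entered this fit through the pistil libraries, so its value does not show that the effect differs between tissues. The CAD4 contrast turned sign with 1 library, at -0.96 without ful-1 library 3 and 0.31 with all 12. Allele and ecotype differ with tissue, and cannot be told apart from it in this contrast.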

How the data were processed

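Per the labels' protocols, a CTAB and lithium chloride extraction was used, and libraries were made with a stranded Illumina kit and sequenced as read pairs. Per the submitters' processing notes, STAR 2.7.0b, featureCounts 1.6.0 and the build TAIR10 were used. The deposited values are whole-number counts per gene and were used as deposited; the strand setting is not given in the sources used here, and MYB58 and its antisense RNA had near-equal counts. The 12 columns carry the group but no replicate number, so libraries are numbered by their place within a group. Nothing beyond the record's mention of biological replicates says how samples were separated, so p-values speak only to the spread among them, which may be technical.

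Genes were kept by filterByExpr, scaled by TMM and tested with edgeR 4.0.16 (quasi-likelihood F test, robust off) in R 4.3.3, with Benjamini-Hochberg adjustment over all genes tested at 0.05. SE was taken as log2 fold change over the root of F. Printed CPM use TMM factors of all 12 libraries, and levels per kb use exon lengths of TAIR10.1. Alternatives used DESeq2 1.42.0, limma 3.58.1 with sample weights, other filters and scalings, and each library left out in turn. The edgeR test was tried on simulated counts for ful-1 against Ler pistils, with and without ful-1 library 3. It was also tried on them for ful-7 against Col-0 meristems. Overlapping exons were read from the TAIR10.1 annotation and near-identical stretches (at least 100 bases at 95% identity) sought with blastn 2.17.0, which found none for the 37 genes. The 37 genes, the lists of 78 pathway genes and 33 markers, and the choice to set ful-1 library 3 aside were made with earlier results of these data known. Named genes are FUL, all 37 genes, up to 6 called pathway genes per comparison by lowest p, and the marker lists. Floors cover counting error only, whereas SE and SD include the spread among libraries.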

Additional observations from a re-analysis of the deposited data

Results flagged for a closer look

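In the 11 libraries without ful-1 library 3, 5 of 35 wall genes passed edgeR's test of the difference between the ful effects in pistils and meristems, 14.3% against 10.2% of all genes. With all 12 libraries 0 of 35 passed. The contrast is the log2 fold change of ful-1 over Ler pistils minus that of ful-7 over Col-0 meristems. It was 3.85 ± 0.82 for MYB103 (adjusted p = 0.0149), 2.53 ± 0.62 for NST1 (adjusted p = 0.0272) and 0.63 ± 0.17 for MYB58 (adjusted p = 0.0396). It was -1.60 ± 0.35 for F5H1 (adjusted p = 0.0170) and -0.96 ± 0.25 for CAD4 (adjusted p = 0.0342), and the CAD4 contrast turned sign with all 12 libraries, at 0.31. MYB103 is near 0 in both groups of meristems, at 0.00 to 0.07 CPM in ful-7 and 0.03 to 0.13 CPM in Col-0. It was too low to test there and entered the contrast through the pistil libraries, so its value does not show that the effect differs between tissues.

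MYB58 was also marked with all 12 libraries, because every ful-1 library lay above every Ler library and every ful-7 library below every Col-0 library. The contrast there was 0.72 ± 0.22 and did not pass (adjusted p = 0.217). Its counts cannot be told apart from those of the noncoding RNA on the opposite strand. Allele and ecotype change with the tissue in all of these values.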

How the results depend on the processing

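The comparison of Ler pistils with Col-0 meristems held in size: 21 to 28 of 35 wall genes and 36 to 52 pathway genes were called over all alternatives. The other counts moved. In ful-1 against Ler pistils, 0 wall genes were called with 6 libraries, 2 by DESeq2, 7 by limma with sample weights, 2 in a joint fit of 12 libraries, and 0 to 5 with a library left out, where the 5 came without ful-1 library 3. Pathway genes there numbered 0, against 2 by DESeq2, 11 with sample weights, 2 in the joint fit and 0 to 5 with a library left out. In meristems, 1 wall gene was called with sample weights, and 1 pathway gene each by DESeq2 and with sample weights. For the difference between tissues, DESeq2 called 3 and sample weights 12 wall genes, and leaving out a library gave 0 to 5 (1 without Ler library 3). The sign of NST1 in meristems, 0.01 with all libraries, changed with 4 of the 6 libraries left out, over a range of -0.25 to 0.27. The CAD4 difference of 0.31 was -0.69 with sample weights and ran from -0.96 (without ful-1 library 3) to 0.69 with a library left out. The cause was not tested. NST2, NST3 and, in meristems, MYB85, MYB103 and IRX15 had too few counts to test. No paired analysis was possible because the deposited columns carry no replicate numbers.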

Other observations

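RWA3, a wall acetylation gene of the pathway list chosen here after its values were seen, had 43.9, 49.4 and 1182 CPM in ful-1 pistils, against 52.0, 56.4 and 63.0 CPM in Ler pistils. In the same ful-1 library 3, 12 of the 37 wall genes lay more than 1 log2 unit below the mean of the other ful-1 libraries and 3 lay more than 1 log2 unit above it, with 0.25 CPM added to each value. The share of all genes that lay as far off is not given here. These counts therefore do not set wall genes apart from other genes in that library.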
